A study of Rattus norvegicus with 16 samples.

Results

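Liver gene expression was compared between rat pups raised by a foster dam and pups raised by their own dam, where every dam had received the same contaminant mixture. The comparison rested on 8 of the 16 arrays used here, chosen by their titles: 4 arrays of cross-fostered mixture pups (MM) and 4 arrays of mixture pups that stayed with their birth mother (M). All pups were male Sprague-Dawley rats aged 21 days. In both groups the dams were dosed from gestation day 0 to postnatal day 20 with organochlorine pesticides, polychlorinated biphenyls and methylmercury dissolved in corn oil, at 1 mg per kg per day. Both groups therefore carried the full mixture exposure, and the change of nursing dam was the factor that set MM apart from M. The 8 arrays of unexposed pups, 4 cross-fostered by corn oil dams (CC) and 4 kept with their own corn oil dams (C), served to show where the exposed pups differed. They also entered the fit, so the SE, p-values and confidence intervals for MM against M take in their spread. The RNA of 2 pups was pooled on each array, so each group held 8 pups. The labels do not give the litter or dam of a pool. Where pools of a group shared a dam, the p-values below measure a spread that is partly within litters.

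Cross-fostering moves a newborn litter to another lactating dam, and is used to separate exposure before birth from exposure through milk. The procedure itself can matter for the liver, because the foster dam sets the milk supply, the maternal care and the lipophilic contaminants passed on in milk. Around weaning the rat liver is leaving a state of high fatty acid oxidation and ketogenesis on a fat-rich milk diet, and is taking on the cytochrome P450 and glucose-handling programmes of the adult. Aryl hydrocarbon receptor (AhR) targets such as Cyp1a1, and constitutive androstane receptor (CAR) and pregnane X receptor (PXR) targets such as Cyp2b2 and Cyp3a23-3a1, respond to the kinds of compound in the mixture. Glucocorticoid-responsive genes such as Fkbp5, Tsc22d3 and Tat are used as readouts of stress hormone action in liver.

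Values are log2 ratios of the liver signal (Cy5) over a universal rat reference RNA (Cy3) on the same spot, so that 1 unit is 2-fold, and differences are MM minus M on that scale. All 8 arrays lay on one slide, with arrays M 5, M 6, MM 1 and MM 2 in array row 1 and M 7, M 8, MM 3 and MM 4 in array row 2. The row was a term of the model, since 1858 of 12072 genes (15.4%) differed between the rows of this slide at an adjusted p below 0.05 (limma, Benjamini-Hochberg). Median spot brightness in Cy5 ranged from 87 to 102 over the 8 arrays, with a local background of 67 to 72, and 46.2% to 53.9% of spots were well above it. The array MM 3 had the lowest share, and stood farthest out on the first principal component, at 23.9 against -15.2 to 10.1 for the others. All 12 hepatocyte markers tested, among them Alb, Apoa1 and Cps1, were well above background on all 8 arrays.

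No gene passed the test. Of 12072 genes tested, 0 were called between MM and M at an adjusted p below 0.05 (0%, limma with Benjamini-Hochberg adjustment). At an unadjusted p below 0.05 there were 475 genes (3.93%), 242 of them at higher and 233 at lower values in MM. The smallest adjusted p was 0.898, for a probe without a gene symbol. The 4 MM arrays lay wholly above the 4 M arrays for 81 genes (0.671%) and wholly below them for 73 (0.605%).

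The measured differences were small. The median absolute difference over all genes was 0.062 on the log2 scale, beside a median standard error of 0.089. The 95% confidence interval of the difference lay within 2-fold of no change for 11961 genes (99.1%) and within 1.5-fold for 11574 (95.9%), and its median half-width was a 1.14-fold change. The absolute difference exceeded 2-fold for 7 genes (0.0580%) and 0.5 on the log2 scale for 40 (0.331%). The SD between the 4 arrays of a group had a median of 0.14 in M and 0.147 in MM.

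Both array rows held 2 arrays of each group, which gave 2 separate estimates of the cross-fostering difference. Across the 12072 genes the correlation of the estimate in row 1 with that in row 2 was -0.067, given as a description since genes are not independent. A gene was at higher values in MM in both rows in 25.6% of cases and at lower values in both in 22.7%. Bdh1, the mitochondrial enzyme that makes 3-hydroxybutyrate, differed by 1.61 in row 1 and by -0.81 in row 2. The plot of the differences in both rows shows a round cloud with a few genes far along one axis.

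**Figure D1:**
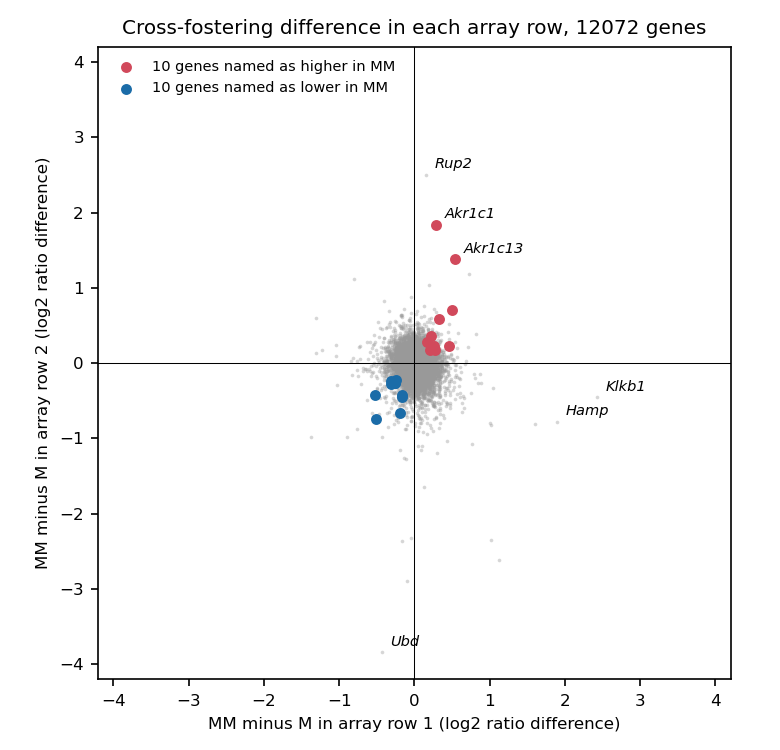
Difference between cross-fostered (MM) and own-dam (M) mixture pups within array row 1 (x axis) and within array row 2 (y axis), in log2 ratio units, 1 grey point per gene for 12072 genes; red and blue points are the 10 genes named as higher and the 10 named as lower in MM. The cloud is centred near 0 with no common slope (correlation -0.067), Ubd and Rup2 are extreme in row 2 alone, and Hamp and Klkb1 in row 1 alone.

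The genes nearest to a call are given first, with the statement that none of them passed (limma, adjusted p = 0.997 for each of the 20 named here). They are the 10 genes of either direction with the smallest unadjusted p among those with a gene symbol and the same sign in both rows. Of the 10 at higher values in MM, 5 had groups that did not overlap, as had 6 of the 10 at lower values, a property the small p itself makes likely. None of the 20 changed sign under any of the alternative settings. For the fits within a row this was fixed by the choice of genes with one sign in both rows. Fits without the row term or on the 8 arrays alone return the same estimate in this balanced layout, so they could not change a sign.

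Myo1e encodes a class I myosin motor of the cell cortex. Its log2 ratio was -0.11, -0.28, -0.13 and -0.27 on arrays M 5 to M 8, and 0.24, 0.03, 0.49 and 0.27 on arrays MM 1 to MM 4. All 4 MM arrays lay above all 4 M arrays, with a difference of 0.46 ± 0.096 (SE, n = 4 arrays per group, a 1.37-fold ratio, limma unadjusted p = 0.000302). The difference was 0.33 within row 1 and 0.58 within row 2. Sephs2, the enzyme that makes selenophosphate for selenocysteine, was at 0.53, 0.72, 0.22 and 0.76 in M and at 1.16, 1.09, 1.23 and 1.15 in MM. The MM arrays were tightly grouped (1.16 ± 0.059 SD, n = 4) and all above the wider M arrays (0.56 ± 0.24 SD, n = 4), a difference of 0.60 ± 0.16 (SE). Of the other 15 selenoprotein and selenium-pathway genes tested, 7 were at higher and 8 at lower values, with a median difference of -0.02. Selenop, the plasma selenium carrier, was 1 of the 7, with a difference of 0.22 ± 0.12 (SE). Of the 8 at lower values, 1 had a limma unadjusted p below 0.05.

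Ldaf1, a partner of seipin in lipid droplet assembly, was at -0.81, -0.67, -0.81 and -0.92 in M and at -0.46, -0.57, -0.34 and -0.66 in MM. The groups nearly met, at M 6 and MM 4, but did not cross, and the difference was 0.29 ± 0.077 (SE). The palmitoyltransferase gene Zdhhc14 was at -0.21 to -0.32 on the M arrays and at -0.05 to -0.15 on the MM arrays, a difference of 0.19 ± 0.055 without overlap. Its relative Zdhhc1 differed by 0.23 ± 0.064 with overlap. Pyroxd1, an oxidoreductase gene, differed by 0.23 ± 0.062, Mrnip, which acts with the MRN complex in DNA repair, by 0.34 ± 0.10, and Rgs12, a regulator of G protein signalling, by 0.25 ± 0.073.

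A pair of aldo-keto reductases had the largest offsets of this group. Akr1c1 was at 0.66, 0.97, 1.22 and 0.68 in M and at 1.13, 1.07, 2.29 and 3.29 in MM, where the row 2 arrays MM 3 and MM 4 stood out. The difference was 1.06 ± 0.31 (SE), with 0.29 in row 1 and 1.84 in row 2. Akr1c1 was well above background on 2 of the 4 M arrays and all 4 MM arrays. It met the brightness filter of 3 or more arrays of a group through MM alone. Its higher values in MM are therefore not independent of its being tested. Akr1c13 was at 0.63, 1.67, 1.53 and 0.67 in M and at 1.76, 1.63, 2.51 and 2.44 in MM, again highest on MM 3 and MM 4, with a difference of 0.96 ± 0.28 (SE). The groups overlapped for both. In unexposed pups the same contrast was -0.10 for Akr1c13, well above background on all 8 of those arrays. Akr1c1 was well above background on 3 of those 8 arrays, so its contrast there is not given. Members of this family are close in sequence, and cross-hybridisation between their probes was not tested.

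Among the genes at lower values in MM, Aen, a p53-induced exonuclease, had the smallest p. It was at -0.12, -0.19, -0.43 and -0.52 in M and at -0.74, -0.62, -1.27 and -0.53 in MM, so that M 8 and MM 4 nearly touched. The difference was -0.47 ± 0.12 (SE, limma unadjusted p = 0.0012). A second Aen probe differed by -0.06 only. Without MM 4 the brighter probe was at -0.63, and Aen was then the 1 gene called in any of the 8 fits that left out an M or MM array (adjusted p = 0.029, limma). Of 15 p53 targets tested, Aen included, 9 were at higher values in MM.

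Cyp2d3, a hepatic cytochrome P450, had the largest offset of the 10. It was at 2.52, 3.02, 3.19 and 2.80 in M and at 2.02, 2.50, 2.07 and 2.41 in MM. The lowest M array, M 5, lay just above the highest MM array, MM 2, and the difference was -0.63 ± 0.18 (SE). Casp8ap2, needed for histone mRNA processing, was at -0.04 to 0.01 in M and at -0.34 to -0.14 in MM, a difference of -0.24 ± 0.065. Prrg2, a vitamin K-dependent membrane protein gene, differed by -0.27 ± 0.076, the fatty acid transport gene Slc27a1 by -0.27 ± 0.077 and the nucleolar exonuclease gene Isg20l2 by -0.28 ± 0.079, each without overlap. Those 4 genes had nearly equal differences in both rows, Casp8ap2 at -0.24 and -0.23 and Slc27a1 at -0.26 and -0.27.

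The remaining 4 overlapped between groups. The leukocyte gene Lst1 differed by -0.43 ± 0.12 (SE), with -0.20 in row 1 and -0.67 in row 2. Slc25a32, a mitochondrial folate and flavin carrier, differed by -0.29 ± 0.076, the uridine phosphorylase gene Upp1 by -0.30 ± 0.087 and Mphosph6, an RNA exosome cofactor, by -0.31 ± 0.084. A second Mphosph6 probe differed by 0.06.

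**Figure D2:**
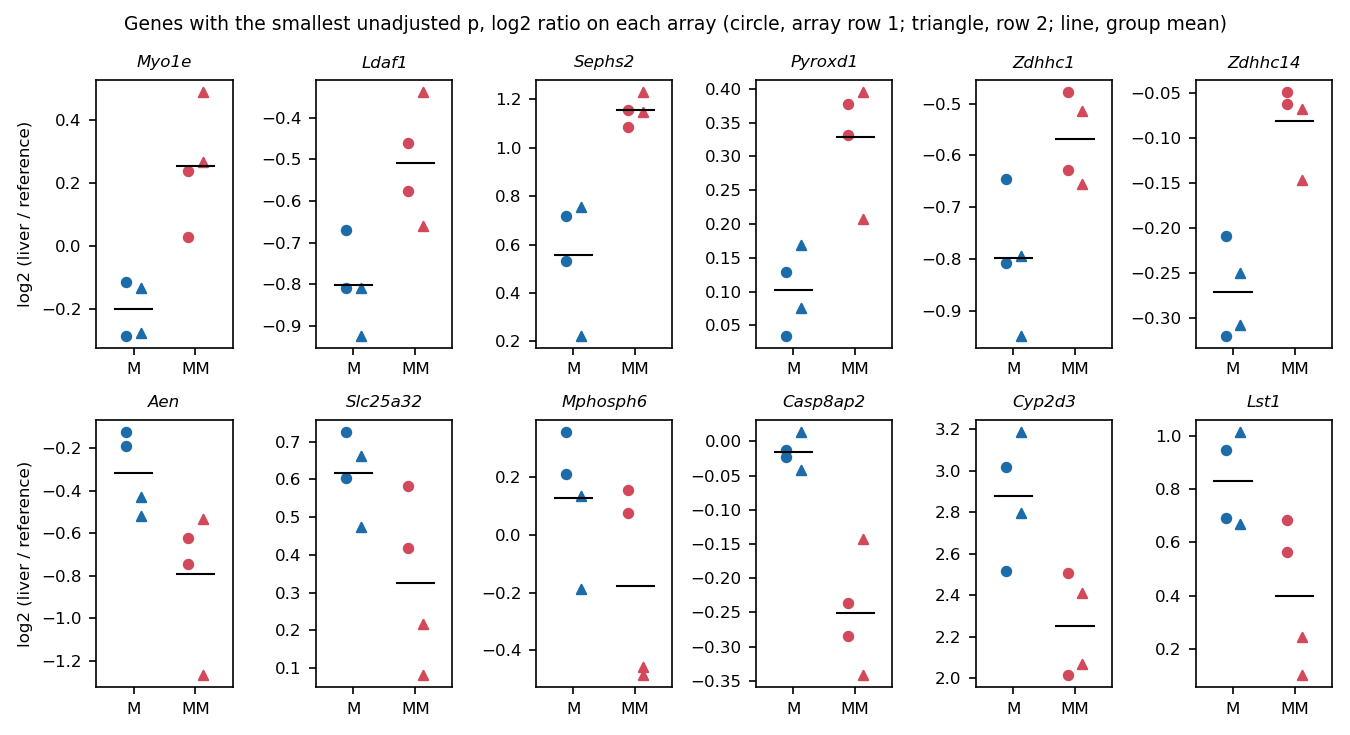
Log2 ratio of liver over reference on each array (y axis, own scale per panel) for the 6 genes with the smallest unadjusted p at higher values in MM (upper panels) and the 6 at lower values (lower panels); x axis, group; circles are array row 1, triangles row 2, and lines the mean of 4 arrays. Myo1e, Ldaf1, Sephs2, Pyroxd1 and Zdhhc14 have all MM arrays above all M arrays, and no gene shown passed the adjusted test.

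The heat shock and chaperone list was the only one of 47 gene lists with 3 or more members at an unadjusted p below 0.05. Of 24 heat shock and chaperone genes tested 0 were called, 5 were at higher values in MM and 19 at lower values, where 48.8% of all genes were at lower values. Their median difference was -0.09 beside 0.003 over all genes, and it was -0.11 within row 1 and -0.02 within row 2. Unexposed pups had the same lean: 6 of the 24 were at higher values in CC, with a median of -0.05 beside 0.01 over all genes. Heat shock factor, a regulator of part of this group, binds heat shock elements built of inverted GAA units. The promoters of the 3 members at p below 0.05 are printed to show where inverted pairs of such units lie. They are RefSeq sequences of build GRCr8, 250 bases before to 50 after the annotated start, 5′ to 3′ on the gene's strand, with each match to GAANNTTC or TTCNNGAA in capitals. Both patterns are their own reverse complement, matches may overlap, and adjoining matches run together.
Hspa8: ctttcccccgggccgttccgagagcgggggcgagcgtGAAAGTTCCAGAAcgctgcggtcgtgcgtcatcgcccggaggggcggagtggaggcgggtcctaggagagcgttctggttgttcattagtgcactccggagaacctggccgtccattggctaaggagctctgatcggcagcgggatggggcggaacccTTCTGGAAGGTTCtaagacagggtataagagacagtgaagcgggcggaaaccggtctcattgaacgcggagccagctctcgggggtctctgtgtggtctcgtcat
Hspd1: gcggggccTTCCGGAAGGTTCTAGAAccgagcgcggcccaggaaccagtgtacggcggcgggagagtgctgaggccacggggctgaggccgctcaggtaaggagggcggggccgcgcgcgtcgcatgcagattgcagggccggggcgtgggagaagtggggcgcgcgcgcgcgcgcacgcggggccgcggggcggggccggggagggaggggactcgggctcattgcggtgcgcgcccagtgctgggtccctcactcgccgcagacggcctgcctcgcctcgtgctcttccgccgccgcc
Fkbp4: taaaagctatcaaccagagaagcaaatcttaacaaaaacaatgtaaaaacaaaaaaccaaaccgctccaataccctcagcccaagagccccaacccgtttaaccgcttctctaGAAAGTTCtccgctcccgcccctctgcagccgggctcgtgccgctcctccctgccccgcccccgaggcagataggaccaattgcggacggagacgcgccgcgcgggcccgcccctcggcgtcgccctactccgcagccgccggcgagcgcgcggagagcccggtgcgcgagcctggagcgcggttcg
The windows are chr8:50080264-50080563 for Hspa8 (plus strand), chr9:64083988-64084287 for Hspd1 (minus strand) and chr4:163397869-163398168 for Fkbp4 (minus strand). They held 4, 3 and 1 matches. Of the 20 tested list members with a promoter sequence, 12 held at least 1 match (60%), and of all 33469 promoters of that length 5305 did (15.9%). The match describes the sequence and does not show binding.

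Hspa8, the constitutive Hsc70 chaperone, was at -0.02, 0.39, -0.58 and 0.07 in M and at -0.40, -0.48, -0.90 and -0.59 in MM. M 7 lay within the MM range, and the other 3 M arrays lay above all MM arrays. The difference was -0.56 ± 0.17 (SE, limma unadjusted p = 0.0051, adjusted p = 0.997), and the other Hspa8 probes differed by -0.38, -0.16 and -0.15. In unexposed pups the same contrast for Hspa8 was -0.34. Fkbp4, the steroid receptor co-chaperone with one match, was at 0.57, 0.69, 0.62 and 0.78 in M and at 0.47, 0.48, 0.58 and 0.35 in MM, a difference of -0.19 ± 0.075 with MM 3 just inside the M range. Hspd1, the mitochondrial chaperonin, differed by -0.14 ± 0.057. Hsp90aa1, the stress-induced form of Hsp90, differed by -0.23 ± 0.12 (limma unadjusted p = 0.0827) on its brightest probe and by -0.13 and -0.20 on its others. Members without a match in the window included Hsp90ab1 at -0.10 and Hspa5 at -0.02, and Hspa9, with 2 matches, was at 0.11.

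None of the known targets of the mixture passed the test, and their measured levels were close in both groups. Cyp1a1 was at 6.76, 6.76, 6.43 and 6.73 in M and at 6.92, 7.01, 6.82 and 6.44 in MM, where MM 4 lay within the M range. The difference was 0.12 ± 0.27 (SE), with a 95% interval from -0.46 to 0.71. That SE takes in the unexposed arrays, where Cyp1a1 was dim and ran from 0.37 to 2.20. Its SD between arrays was 0.16 in M and 0.25 in MM. Cyp1a2, the other hepatic AhR-driven P450, differed by 0.14 ± 0.083, with 0.10 in row 1 and 0.17 in row 2. Its ratio was 5.0 to 5.6 on the unexposed arrays and 5.3 to 5.7 on these 8. Its log2 Cy5 was 13.0 to 13.5 and 15.4 to 15.9, a gap that the ratio did not register. With Cy5 alone Cyp1a2 differed by 0.07 between MM and M. Of 9 AhR targets tested 0 were called and 6 were at higher values in MM, with a median of 0.05, and the 95% interval of each lay within 2-fold. Cyp2b2 was at 7.86, 7.98, 8.34 and 7.85 in M and at 7.73, 7.86, 7.94 and 7.81 in MM, a difference of -0.17 ± 0.20 with overlap. Cyp3a23-3a1 differed by -0.20 ± 0.18, where MM 3 at 7.67 was the lowest array and the other 7 were between 8.21 and 8.52. Of 23 CAR and PXR targets 7 were at higher and 16 at lower values in MM, with medians of 0.06 within row 1 and -0.20 within row 2. With the log ratio of the scanner software the direction turned, with 14 of the 23 at higher values and a median of 0.03, and Cyp3a23-3a1 was at 0.56. The list level, the mean over members of each gene's deviation from its mean on the 8 arrays, was -0.28 on MM 3 and between -0.03 and 0.17 on the other arrays.

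Stress hormone and growth axis genes did not pass the test either. Fkbp5, a glucocorticoid receptor target, was at 0.92, 0.09, 0.70 and -0.25 in M and at -0.22, -0.24, 0.36 and 0.55 in MM. Within row 1 it differed by -0.73 and within row 2 by 0.23, so the estimate of -0.25 ± 0.25 (SE) averaged opposite values. Tsc22d3 (GILZ) differed by -0.20 ± 0.14. Tat, tyrosine aminotransferase, differed by -0.46 ± 0.26, with MM 3 at 1.81 and the other arrays between 2.78 and 3.59. Hsd11b1, which regenerates active glucocorticoid in liver, differed by 0.13 ± 0.11, and Igf1, the growth hormone target, by 0.09 ± 0.096. Igfbp1, a fasting-responsive binding protein, was at 0.17 to 1.56 in M and at 0.17 to 1.05 in MM. Of 21 glucocorticoid-responsive genes 9 were at higher and 12 at lower values, with a median of -0.03.

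Several genes of fuel metabolism had differences of opposite sign in the array rows, which was common over all genes. Of all genes 25.6% were at higher values in MM in both rows and 22.7% at lower values in both. Bdh1 was at 2.32, 2.30, 3.61 and 3.39 in M and at 4.0, 3.84, 3.12 and 2.27 in MM, so it was high in MM in row 1 and high in M in row 2. Cpt1a, which admits fatty acids to mitochondria, differed by 0.33 in row 1 and by -0.54 in row 2, and Angptl4, a target of the fatty acid sensor PPARα, by 0.39 and -0.73. Pck1, the gluconeogenic enzyme, differed by 0.63 and -0.53. Over 39 fatty acid oxidation and PPARα target genes the median was 0.08 within row 1 and -0.26 within row 2, and -0.08 in all, with 8 at higher values in MM. Without MM 3 that median was -0.03 and 15 were higher.

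Cyp7a1, the rate-limiting enzyme of bile acid synthesis, was at 5.77 to 6.04 in M and at 5.64 to 6.30 in MM, with a difference of 0.09 ± 0.15 (SE). Of 32 cholesterol synthesis and sterol genes 26 were at higher values in MM (51.2% of all genes were), and 0 were called. Their median of 0.14 was 0.05 in row 1, 0.25 in row 2. It was 0.09, with 20 of 32 at higher values, without M 5, the array with the lowest list level (-0.30), and 0.30 without M 6, the array with the highest (0.24). In unexposed pups the median of the same list was 0.25. Hmgcs1 differed by 0.48 ± 0.51 and Mvd by 0.38 ± 0.46, both enzymes of the early pathway, while Soat2, which esterifies cholesterol, differed by -0.31 ± 0.12. These list members and those of the lists that follow were chosen after their values were seen.

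Dbp, an output gene of the circadian clock, had the smallest p of the 21 marker and regulatory genes reported whatever their result. It was at -1.66, -0.53, -1.5 and -0.69 in M and at -1.08, -0.73, -0.13 and 0.00 in MM. The groups overlapped in row 1 and were apart in row 2, and the difference was 0.61 ± 0.25 (SE, limma unadjusted p = 0.0269, adjusted p = 0.997). Other Dbp probes differed by 0.61 and 0.51, and unexposed pups showed 0.51 ± 0.25 for the same contrast. Per2, a core clock gene, differed by -0.01 ± 0.11, and of 14 clock genes 6 were at higher and 8 at lower values in MM. The hour of tissue collection was not among the labels used here. Dnmt3a, a DNA methyltransferase, differed by -0.04 ± 0.080, Irf1, an interferon-induced factor, by -0.08 ± 0.12, and albumin (Alb) by 0.09 ± 0.28. The SE of Alb takes in the unexposed array CC 1, at 7.13 against 8.7 to 9.0 on the other unexposed arrays. Within the exposed groups the SD of Alb was 0.048 in M and 0.12 in MM. Dnmt1 was not tested because its probe was too dim.

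**Figure D3:**
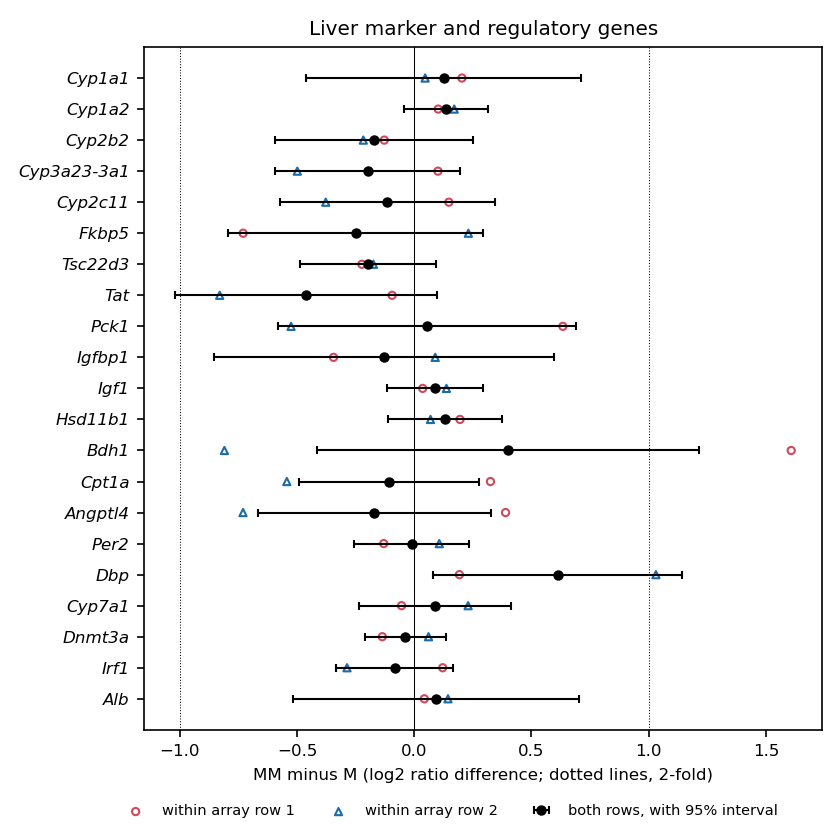
Difference between MM and M for 21 liver marker and regulatory genes (x axis, log2 ratio difference): black points and bars are the estimate over both rows and its 95% confidence interval from limma, open circles the difference within array row 1 and open triangles that within row 2; dotted lines mark 2-fold. All intervals except that of Dbp include 0, and Bdh1, Pck1, Cpt1a, Angptl4 and Fkbp5 have opposite signs in the rows.

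Class II and macrophage markers lay at lower values in MM within row 2 and not within row 1. All 8 class II antigen presentation genes tested were at lower values in MM, with a median of -0.22 that was 0.11 within row 1 and -0.55 within row 2. The list level was -0.38, 0.14, -0.04 and 0.77 on M 5 to M 8 and -0.09, 0.08, -0.03 and -0.44 on MM 1 to MM 4. The groups overlapped, and M 8 was the highest array: without it the median was -0.05. Of 15 Kupffer cell and macrophage markers 2 were at higher and 13 at lower values, with a median of -0.19, 0.06 in row 1, -0.31 in row 2 and -0.07 without M 8. Aif1 differed by -0.37 ± 0.14 (SE) and Marco, a scavenger receptor, by -0.50 ± 0.28, while Clec4f, a lectin specific to Kupffer cells in rodents, differed by -0.01. All 8 sinusoidal endothelial markers were at lower values over both rows, with a median of -0.09, but 5 of the 8 were at higher values within row 1 (median 0.02) and 2 within row 2 (median -0.24). Without MM 3 that median was -0.01, with 4 of 8 at higher values. In bulk liver, fewer cells of a type and less RNA per cell cannot be told apart.

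Of 25 interferon response genes 5 were at higher and 20 at lower values over both rows, with a median of -0.09. Within row 1, 14 of the 25 were at higher values (median 0.02), and within row 2, 4 were (median -0.18). Without M 5 the median was -0.21, and without M 8 it was -0.05. Isg20, an antiviral exonuclease, differed by -0.50 ± 0.21 and the guanylate-binding protein Gbp2 by -0.38 ± 0.17. The interferon list level ran from -0.16 to 0.23 in M and from -0.17 to 0.09 in MM, and the interferon, class II and macrophage lists all had their lowest M level on M 5. The part of immune cell content in the interferon values was not tested.

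Hepatocyte markers sat slightly the other way. Of 12 general hepatocyte markers 10 were at higher values in MM, with a median of 0.07. Unexposed pups had the opposite lean: 1 of the 12 was at higher values in CC, with a median of -0.30 beside 0.01 over all genes. Of 12 periportal markers 11 were at higher values in MM, with a median of 0.11 that was 0.26 in row 1 and -0.01 in row 2. In unexposed pups 7 of these 12 were at higher values in CC, with a median of 0.003. The periportal P450 gene Cyp2f4 differed by 0.20 ± 0.090 and Aldh1b1 by 0.17 ± 0.080. Of 22 bile acid genes 16 were at higher values over both rows, with a median of 0.04, but 17 were within row 1 (median 0.15) and 7 within row 2 (median -0.04). Without M 5 or MM 2 the median was also below 0, at -0.02 in both. The sterol 12-alpha-hydroxylase gene Cyp8b1 differed by 0.46 ± 0.17. Of 34 cytosolic ribosomal protein genes 9 were at higher and 25 at lower values, with a median of -0.03. In unexposed pups 26 of the 34 were at higher values in CC, with a median of 0.04. Of the 47 lists, 5 kept the sign of their median in every alternative setting and array left out: cholesterol synthesis, heat shock, ribosomal proteins, hepatocyte markers, and a kidney and adrenal list with 2 genes tested. Their medians nearest to 0 were 0.002 for hepatocyte markers, 0.005 for the kidney and adrenal list and -0.02 for heat shock. For ribosomal proteins it was -0.02 and for cholesterol synthesis 0.05.

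**Figure D4:**
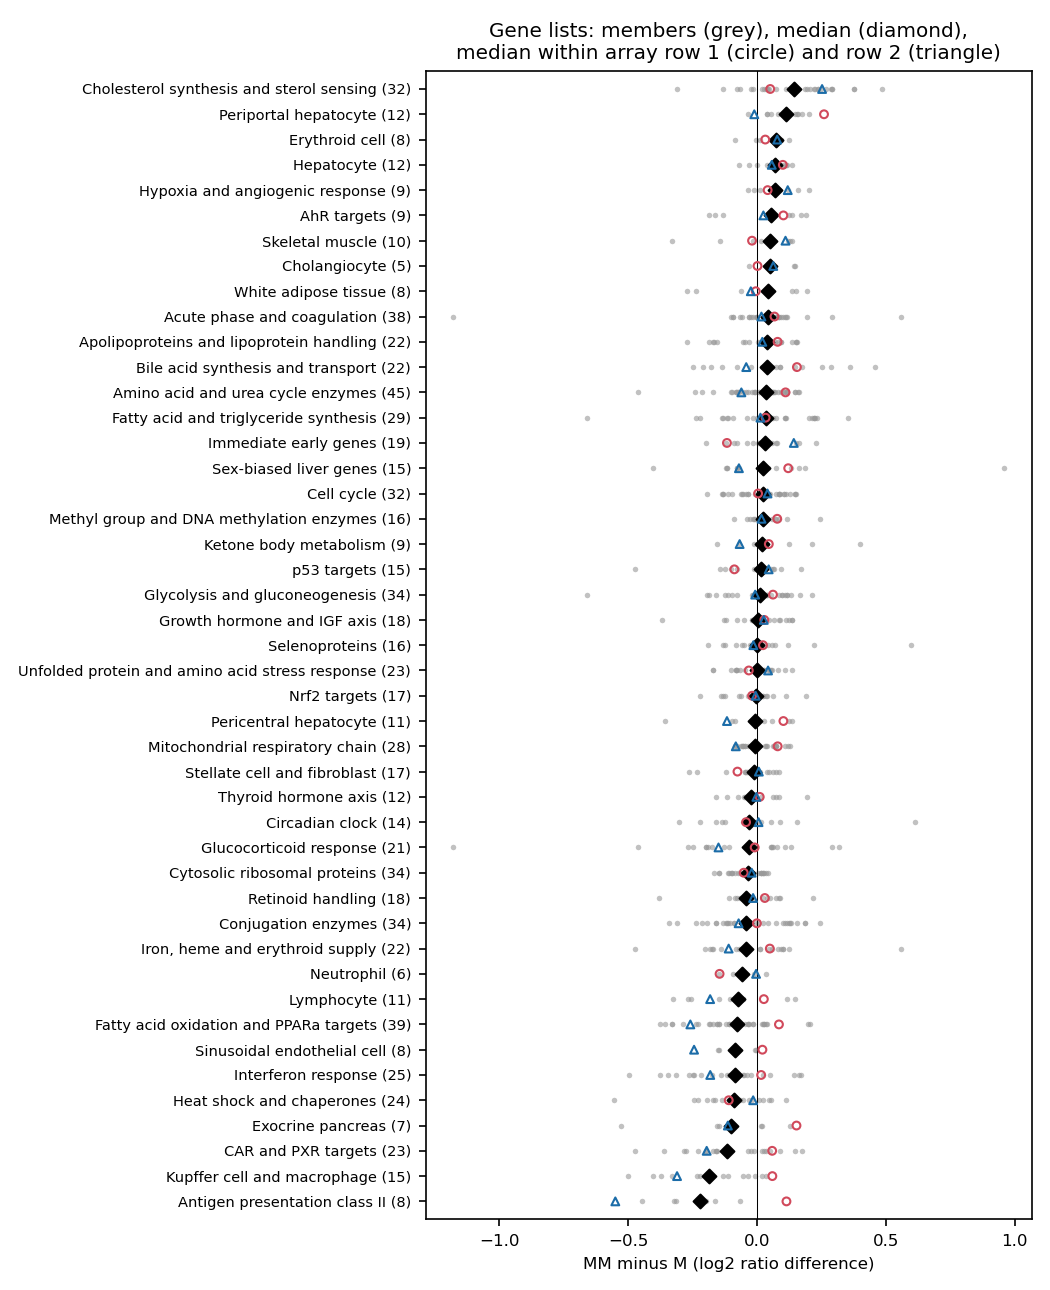
Difference between MM and M (x axis, log2 ratio difference) for the members of 45 gene lists with at least 5 genes tested (number in brackets): grey dots are genes, black diamonds the list median, open circles the median within array row 1 and open triangles that within row 2. Most medians are within 0.1 of 0, and the class II, Kupffer cell and fatty acid oxidation lists are among those with medians of opposite sign in the rows.

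Some genes stood far apart on single pools. The genes with the largest spread within groups, chosen after their values were seen, are described here. Hamp, the iron hormone hepcidin, was at 4.71 on MM 2 and between -1.22 and 0.81 on the other 7 arrays. Ubd, a ubiquitin-like protein induced by inflammatory signals, was at 0.33 on MM 4 and between 3.88 and 6.10 on the others. Its difference of -2.14 ± 0.78 (SE, limma unadjusted p = 0.0154) was the largest of all genes in size, with -0.43 in row 1 and -3.84 in row 2. Klkb1, plasma prekallikrein, was at 1.34 on M 5 and between 4.09 and 5.44 on the others.

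Further genes of liver metabolism set single pools apart. Acnat2, an acyl-CoA amino acid acyltransferase gene, was at 3.76 on M 8 and between 0.44 and 1.1 elsewhere. Acsm2 and Acsm5, medium-chain acyl-CoA synthetase genes, were at 0.23 and 3.57 on MM 1, against at least 2.43 and 5.64 on the other 7 arrays. MM 1 was thus low for both of these genes. Abcb11, the bile salt export pump, was at 6.29 on MM 2 and between 3.45 and 4.38 on the others, so that MM 2 carried the highest values of both Hamp and Abcb11. Rup2, a urinary protein gene, was at 1.29 to 3.05 in M and at 0.38 to 6.10 in MM. Lcn2, the acute-phase lipocalin, differed by -1.18 ± 0.38 (SE), with -1.37 and -0.98 in the rows, and the groups overlapped.

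Digestive enzyme genes of the exocrine pancreas were also uneven. Ctrb1, chymotrypsinogen, was at 3.63 on MM 1, 2.67 on M 6 and 1.01 on M 5, and between -0.43 and -0.10 on the other 5 arrays. The level of the 7 pancreas markers tested was 1.42 on MM 1 and 0.84 on M 6, 1 array of each group, and between -0.66 and 0.01 on the others. Their median difference between MM and M was -0.10, and it ran from -0.47 without MM 1 to 0.37 without MM 2, so that its sign depended on single arrays. The 10 skeletal muscle markers tested were even across the 8 arrays, from -0.07 to 0.09. In unexposed pups the median cross-fostering difference of these lists was 1.69 and 1.38.

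**Figure D5:**
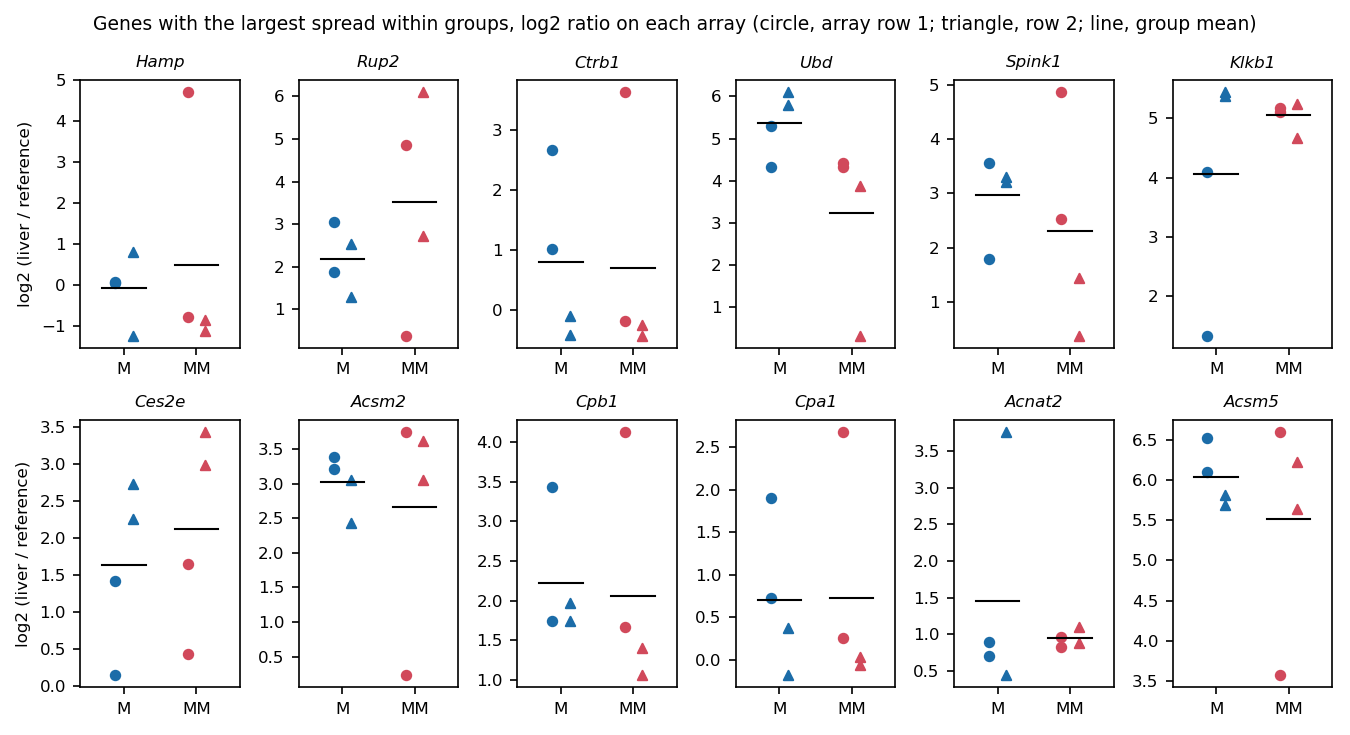
Log2 ratio of liver over reference on each array (y axis, own scale per panel) for the 12 genes with the largest spread within groups; x axis, group; circles are array row 1, triangles row 2, and lines the mean of 4 arrays. Single pools stand apart, as for Hamp on MM 2, Ubd on MM 4, Klkb1 on M 5 and Acnat2 on M 8.

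The dependence of the cross-fostering difference on exposure was tested as the interaction, (MM minus M) minus (CC minus C). Of 12072 genes 0 were called (smallest adjusted p = 0.88, limma with Benjamini-Hochberg adjustment), and 634 (5.25%) had an unadjusted p below 0.05. In unexposed pups alone 0 genes were called and 515 (4.27%) had an unadjusted p below 0.05. The C and CC arrays lay on another slide, so that the exposure and the slide cannot be told apart, but each cross-fostering difference was taken within a slide. Myo1e had the smallest interaction p (0.000105): its contrast was 0.46 in exposed and -0.27 in unexposed pups.

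The next 4 genes by that p, none of them called, had a positive contrast in exposed and a negative one in unexposed pups. Opposite signs are what a ranking by interaction p favours. Wwc2, a Hippo pathway gene, was at 0.25 and -0.20, and a second Wwc2 probe at -0.19 in exposed pups. Elf3, an epithelial transcription factor, was at 0.19 and -0.18, and Ptprf, a receptor phosphatase, at 0.16 and -0.35. Nemf, a ribosome quality control gene, was at 0.25 and -0.22, with Cy5 well above background on 2 of 4 arrays in each exposed group. It met the brightness filter through C alone, so its lower values in CC are not independent of that filter. Of the 10 skeletal muscle markers 9 had an interaction p below 0.05, as had 9 of 10 between CC and C and 0 of 10 between MM and M. Over all genes those shares were 5.25%, 4.27% and 3.93%. The median of this list was 1.38 between CC and C and 0.05 between MM and M. Markers of a single tissue move together and are not separate results. The muscle content of the unexposed pools was not tested.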

How the data were processed

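Liver RNA was labelled with Cy5 and a universal rat reference RNA with Cy3 on every array. The deposited scanner files came from Agilent Feature Extraction (11.0.1.1, per the file headers) and give the median intensity of each spot and its local background, quality flags (other values, as deposited), and a log10 ratio made by that software. The authors' deposited series table holds log2 ratios whose normalization is not given in the sources used here; it correlated with the ratios computed here at 0.9969 to 0.9974 on the 8 arrays. The plan assumed mean signals, but median signals were used, since the files hold medians.

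Background was corrected with normexp (offset 50), ratios were loess-normalized within arrays without weight on 4259 control spots of 62976, outlier spots were left out, and spots of a probe were averaged. Probes were kept where Cy5 exceeded background clearly (the software's flag) on 3 or more arrays of a group (13262 of 30367), and the brightest stood for a gene: 12072 genes or identifiers, 7895 with a GRCr8 symbol. With limma 3.58.1 (R 4.3.3) 4 group means and a row term per slide were fitted to 16 arrays (10 residual and 4 prior degrees of freedom), two-sided, with Benjamini-Hochberg adjustment and calls below 0.05. The fit was tested on simulated data.

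The 47 lists (769 of 1019 members tested), the named-gene rule and the comparison were chosen with earlier results of these data known. The rule names 10 genes per direction by unadjusted p with one sign in both rows, up to 4 members of a list with 3 at p below 0.05, fixed liver genes, and 5 interaction genes; 2 of the fixed genes are not reported here. Alternatives covered background, normalization, filters, probes, row, arrays in the fit and single arrays left out. The number of arrays limits the precision.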

Additional observations from a re-analysis of the deposited data

Results flagged for a closer look

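In 10 of 126 groups of 4 arrays checked, 1 array lay far from the other 3: its gap to the nearest over the group's range was above Dixon's 95% critical value. Chance flags about 1 in 20 groups, a rate that holds only for genes not chosen by their spread: of the 102 groups of the other genes 4 had such an array, and of the 24 groups of the 12 genes chosen for a large spread within groups 6 were. In M, Cyp1a1 was at 6.43 on M 7 (the others 6.73 to 6.76), Pck1 at 2.85 on M 6 (3.98 to 4.11), Dnmt3a at 0.48 on M 8 (0.27 to 0.29), Cpb1, a pancreatic carboxypeptidase, at 3.43 on M 6 (1.75 to 1.97), and Acnat2 at 3.76 on M 8 (0.44 to 0.90). In MM, Hsd11b1 was at 3.77 on MM 4 (3.55 to 3.57), Hamp at 4.71 on MM 2 (-1.11 to -0.78), Ctrb1 at 3.63 on MM 1 (-0.43 to -0.19), Cpa1, another pancreatic carboxypeptidase, at 2.68 on MM 1 (-0.06 to 0.26), and Ubd at 0.33 on MM 4 (3.88 to 4.43).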

How the results depend on the processing

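No gene was called between MM and M under any of the 18 alternatives. Leaving out 1 of the 8 arrays gave 0 to 1 calls, 0 to 0 of them higher and 0 to 1 lower (Aen, without MM 4), with 418 to 701 genes at an unadjusted p below 0.05. For CC against C and for the interaction leaving out an array gave 0 to 0 calls. Within array row 1 alone, CC against C had 33 calls and the interaction 22. The row term bore on the count at an unadjusted p below 0.05: 276 genes without it, against 475 with it, 436 with the 8 arrays alone and the row, and 229 with the 8 arrays and no row. The interaction has no value in fits of a single slide. Of 1317 values of the 51 named genes under alternatives 1278 moved by less than the SD between arrays and 37 by more. Part of that count was fixed in advance. In this balanced layout a fit without the row term, on the 8 arrays alone or with another model of the spread gives the same estimate. The 1 reversed value was Bdh1, at -0.81 within array row 2, and the cause was not tested. Sign changes occurred in 16 genes and none in the other 35, which include the 10 genes per direction chosen for one sign in both rows. No paired analysis was possible because the M and MM arrays share no replicate number. Signal over background limits the test to genes with Cy5 above it; the Cy3 reference alone had 1 call between the groups.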
